A study of Mus musculus with 4 samples.

Results

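The subject is the transcripts of 9 genes that build and start the T cell receptor signal: the CD3 chains Cd3d, Cd3e, Cd3g and Cd247, the tyrosine kinases Lck, Fyn and Zap70, and the adaptors Lat and Lcp2. They were picked out by gene symbol, with earlier results of these data known, and all 9 were found among 32285 genes measured in 4 droplet libraries of tumor-infiltrating T cells. The T cells came from subcutaneous tumors of 105K cells, a mouse kidney tumor line that lacks Tsc2 (Tsc2-/-), grown in C57BL/6J mice. In the control group (sh_NC, n = 2 libraries) the tumor cells carried a non-targeting short hairpin RNA, and in the knockdown group (sh_B7-H3 (1), n = 2 libraries) a hairpin that targets Cd276, which encodes the checkpoint protein B7-H3. The hairpins were in the tumor cells and not in the T cells that were measured, and each tumor line was a selected mixed pool rather than 1 clone. For each group 80 tumors were pooled, and live CD3+ cells were sorted by flow cytometry. The sources differ on what the 2 libraries of a group are: the deposited design text has 1 pool of a group divided over duplicate lanes, while the study speaks of independent samples. If they are lanes, they may differ by less than separate groups of mice would, and every p-value below measures only the spread between these libraries, which may be technical. The cells had been selected for surface CD3, although 59, 59, 122 and 125 barcodes marked by myeloid genes were present in the 2 control and the 2 knockdown libraries.

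In a T cell the receptor for antigen has no signaling tail of its own. It sits in the membrane with the CD3 delta, epsilon and gamma chains and a pair of CD3 zeta chains (encoded by Cd247), whose tails carry the tyrosines that Lck and Fyn phosphorylate when antigen binds. ZAP-70 then docks on the phosphorylated tails and phosphorylates LAT and SLP-76 (encoded by Lcp2), the scaffolds from which the calcium, RAS and NF-kB branches depart. A measured RNA level says nothing of phosphorylation or of surface assembly.

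Cells were grouped by RNA. UMIs (unique molecular identifiers) count captured RNA molecules. Cd4 cells had at least 1 Cd4 UMI, under 3 summed Cd8a and Cd8b1 UMIs and no Foxp3 UMI; Cd8 cells had at least 3 Cd8a and Cd8b1 UMIs and neither Cd4 nor Foxp3; Foxp3 cells, the gate of regulatory T cells, had at least 1 Foxp3 UMI and under 3 Cd8 UMIs. Within each gate, cells with at least 20 UMIs of Ccl5, a chemokine made by effector and memory T cells, were separated from those under 20. The numbers of Cd4 cells were 1753 and 1494 with the control hairpin and 863 and 1103 with the knockdown; for Cd8 cells they were 2459, 2175, 1068 and 1446, and for Foxp3 cells 351, 320, 223 and 221, in the same order. The share of Cd4 cells with at least 20 Ccl5 UMIs was 7.76% and 9.17% for the controls against 46.3% and 44.8% for the knockdown, with 95% Wilson intervals of 6.60 to 9.10%, 7.81 to 10.7%, 43.0 to 49.7% and 41.9 to 47.7%. For Cd8 cells the shares were 15.6%, 19.4%, 64.0% and 58.8%, and for Foxp3 cells 3.70%, 5.00%, 8.97% and 10.9%. Few cells lay near the limit: in each of the Cd4 and Cd8 gates between 0 and 19 cells per library had 15 to 19 Ccl5 UMIs and between 1 and 17 had 20 to 24.

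The libraries held 7030 to 12112 called barcodes and 79224898 to 132820909 RNA UMIs, and 2846 to 5920 cells per library remained after the filters and the removal of 18.7 to 21.6% of the filtered cells as doublets. Barcodes shared by pairs of libraries numbered 17 to 35. Cd276 itself gave 9 to 11 UMIs per library, so these T cell libraries do not check the knockdown. In the RNA of barcodes with at most 100 UMIs, which stands for free RNA, Ccl5 was at 1212 and 1417 CPM (UMIs per 1000000 UMIs) in the controls against 4279 and 4741 CPM in the knockdown, Cd3g at 998 and 1027 against 1257 and 1426 CPM, and Lat at 484 and 530 against 371 and 362 CPM. Cd3e was at 437 and 435 against 524 and 531 CPM there, and Zap70 at 142 and 159 against 163 and 141 CPM. Cd4, of which 1 UMI was enough for its gate, was at 96.0 and 88.5 against 170 and 155 CPM. Apart from Zap70 the groups did not overlap in these genes. The share of all genes that did not overlap in free RNA is not given, and the part of free RNA in the results was not tested. Kept cells with Cd4 and at least 3 Cd8 UMIs were 1.10% and 1.49% in the controls against 2.60% and 3.44% in the knockdown. Between 18.1% and 21.5% of kept cells per library lacked the UMIs for any gate. In the Ccl5 classes of Cd4 and Cd8 cells the 7 resting T cell markers summed to 1421.5 to 2160 CPM with Ccl5 under 20 and to 66.6 to 585 CPM with Ccl5 at least 20, and the 3 receptor constant genes Trac, Trbc1 and Trbc2 were detected in every class. The 6 natural killer markers summed to 158 to 279 CPM with Ccl5 at least 20 and to 2.27 to 20.5 CPM with Ccl5 under 20, with Ncr1 at 0 in every one of these sums and Klra8 and Klra4 at 0 in most. The 5 gamma-delta T cell markers summed to 242 to 350 CPM and 7.53 to 26.7 CPM in the same classes. The regulatory T cell markers were also higher with at least 20 Ccl5 UMIs in both gates of each library. The 6 B cell markers summed to 21.8 to 71.6 CPM and 154 to 228 CPM, the 10 myeloid markers to 227 to 449 CPM and 174 to 481 CPM, and the tumor and stroma markers to 18.8 to 39.3 CPM and 30.0 to 68.3 CPM. The 9 effector T cell markers, which hold Ccl5 itself, summed to 23505 to 44994 CPM with Ccl5 at least 20 and to 190 to 1377 CPM under 20. The part of these lists in the class comparisons was not tested.

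Genome positions follow GRCm38 with the GENCODE M21 annotation. The gamma, delta and epsilon genes are neighbours on chromosome 9: Cd3g (ENSMUSG00000002033) at chr9:44969572-44980431 on the minus strand, Cd3d (ENSMUSG00000032094) at chr9:44981786-44987339 on the plus strand and Cd3e (ENSMUSG00000032093) at chr9:44998740-45009627 on the minus strand. Cd3g and Cd3d are transcribed away from each other from start sites 1355 bases apart. The zeta gene Cd247 lies apart from them at chr1:165788681-165877277 (+). Zap70 is at chr1:36761798-36782818 (+), Lck at chr4:129548344-129573641 (-), Fyn at chr10:39368855-39565381 (+), Lat at chr7:126363824-126369570 (-) and Lcp2 at chr11:34046920-34092295 (+). Same-strand transcripts overlap Cd3e (Gm48720), Cd247 (Gm16565), Lck (Mir8119) and Lat (Mir7058), and reads shared with them cannot be told apart here.

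The promoters of the 3 chromosome 9 genes are shown because Cd3g and Cd3e rose together below while Cd3d, between them, moved much less. They are RefSeq windows on GRCm38.p6, from 250 bases before to 50 bases after the annotated start, written in the direction of transcription. Capitals mark E-boxes (CANNTG, the same on both strands, the letters bound by basic helix-loop-helix factors).
Cd3g, chr9:44980382-44980681 (-): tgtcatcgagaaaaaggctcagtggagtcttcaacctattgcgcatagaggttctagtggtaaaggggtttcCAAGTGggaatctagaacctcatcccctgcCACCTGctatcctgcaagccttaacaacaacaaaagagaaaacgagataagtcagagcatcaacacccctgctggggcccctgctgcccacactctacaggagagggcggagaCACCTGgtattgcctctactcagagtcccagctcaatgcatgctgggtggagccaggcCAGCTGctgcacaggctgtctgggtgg
Cd3d, chr9:44981536-44981835 (+): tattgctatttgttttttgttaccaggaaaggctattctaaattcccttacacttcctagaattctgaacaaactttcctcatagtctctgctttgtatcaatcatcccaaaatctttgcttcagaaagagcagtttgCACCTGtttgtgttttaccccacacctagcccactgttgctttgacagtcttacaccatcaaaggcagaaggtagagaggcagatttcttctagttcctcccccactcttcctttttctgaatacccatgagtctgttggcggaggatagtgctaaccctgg
Cd3e, chr9:45009562-45009861 (-): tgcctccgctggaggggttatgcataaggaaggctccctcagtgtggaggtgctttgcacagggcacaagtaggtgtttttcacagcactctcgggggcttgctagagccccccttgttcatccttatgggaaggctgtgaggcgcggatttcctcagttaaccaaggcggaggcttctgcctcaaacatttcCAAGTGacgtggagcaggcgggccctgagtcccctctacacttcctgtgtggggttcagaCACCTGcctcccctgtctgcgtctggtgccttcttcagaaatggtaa
The Cd3g window held 4 E-boxes, the Cd3d window 1 and the Cd3e window 2. Of 32851 mouse promoter windows of the same length, 6.49% held at least 4, 39.6% at least 2 and 72.3% at least 1. The E-box was 1 of 7 strings searched, the others being GGAA (the ETS core), TGTGGT (RUNX factors), CTTTGA (TCF and LEF factors), the GATA motif, TATAAA (the TATA box) and GGGCGG (KLF and SP factors) on both strands, and 1 E-box in each of the Cd3g and Cd3e windows overlapped a match to another string. In the Cd3g, Cd3d and Cd3e windows in turn, GGAA matched 2, 6 and 5 times and CTTTGA 0, 2 and 0 times. GATA matched 2, 2 and 0 times and GGGCGG 1, 0 and 0 times, while TGTGGT and TATAAA did not match. Only the E-box is marked, and other strings ordered the 3 genes differently. These matches are a description of letters, and nothing measured here bears on binding.

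Cd4 cells with at least 20 Ccl5 UMIs carried far more Cd3g, Cd3e, Zap70 and Cd247 RNA than Cd4 cells under 20, and slightly less Lat. Levels here are normalised CPM, which are CPM scaled by TMM (trimmed mean of M values) factors over all sums, and n = 4 libraries throughout. Cd3g, the gamma chain, was at 1132, 1098, 1229 and 1235 normalised CPM in cells under 20 (control 1, control 2, knockdown 1, knockdown 2) and at 3506, 3316, 3540 and 3513 in cells with at least 20. Cd3e, the epsilon chain, was at 540, 522, 522 and 526 against 1267, 1207, 1275 and 1225. For both genes the lowest library of the upper class stood above the highest of the lower class by more than the whole spread among libraries. Zap70, the kinase that docks on the chains, was at 82.5, 81.4, 91.3 and 92.5 normalised CPM under 20 and 202, 183, 191 and 189 with at least 20. Cd247, the zeta chain, was at 186, 184, 184 and 193 against 385, 420, 331 and 355. Again no library of one class reached the other. Cd3d, the delta chain, moved less: 1158, 1115, 1145 and 1123 normalised CPM against 1584, 1604, 1587 and 1536.

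In the edgeR quasi-likelihood test with library as a block, these differences were a log2 fold change of 1.57 ± 0.06 for Cd3g (SE, adjusted p = 2.41e-09), 1.25 ± 0.06 for Cd3e (adjusted p = 1.07e-08), 1.15 ± 0.07 for Zap70 (adjusted p = 7.4e-08), 1.00 ± 0.07 for Cd247 (adjusted p = 2.76e-07) and 0.48 ± 0.06 for Cd3d (adjusted p = 2.34e-05). Fyn and Lcp2 also rose, by 0.35 ± 0.07 and 0.34 ± 0.07 (edgeR, adjusted p = 0.00103 and 0.00167). Lat, the membrane scaffold, was at 383, 380, 333 and 332 normalised CPM under 20 and 299, 316, 245 and 239 with at least 20, a log2 fold change of -0.38 ± 0.06 (edgeR, adjusted p = 3.15e-04). Scaled to library totals in place of TMM, an alternative chosen after seeing the data, Lat was at -0.04 and did not pass the test. Lck, the kinase that starts the cascade, did not pass the test at -0.06 ± 0.06 (95% interval -0.18 to 0.07), and was at 0.28 with library totals, the opposite direction. In all, 8 of the 9 members were called at adjusted p under 0.05, 7 higher and 1 lower, where 53.3% of the 9624 genes tested were called; the members' median log2 fold change was 0.48 and that of all genes 0.00. Library totals put the median of all genes at 0.33 and moved the split from 2577 higher and 2554 lower to 4474 and 1430, with Cd3g at 1.91, Cd3e at 1.59, Zap70 at 1.49 and Cd247 at 1.34. Median UMIs per Cd4 cell were 6490.5 to 6968 in the 4 libraries with at least 20 Ccl5 UMIs, against 6900 to 8109 under 20. The part of depth in the differences was not tested.

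**Figure D1:**
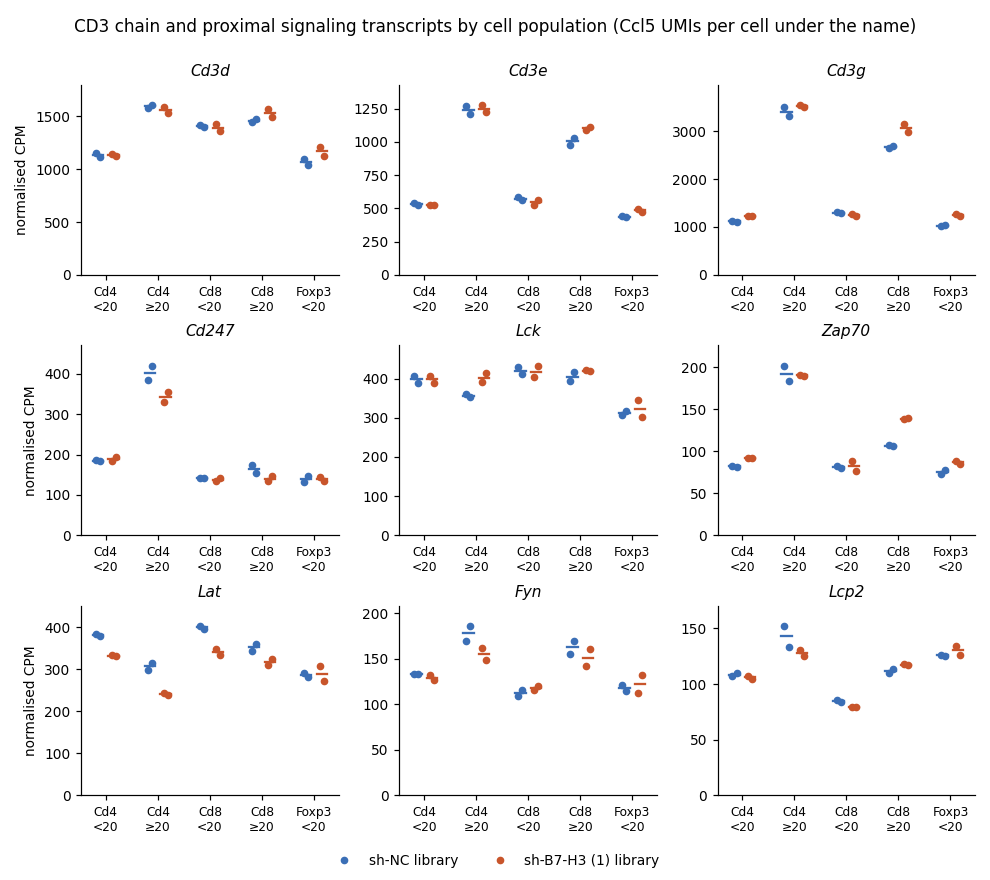
Normalised CPM (UMIs per 1000000 with TMM scaling, vertical axes) of the 9 transcripts in Cd4 and Cd8 cells with under 20 or at least 20 Ccl5 UMIs and in Foxp3 cells under 20; each point is 1 library and each bar the mean of 2. Cd3g and Cd3e were higher with at least 20 in both gates, and Cd247 in Cd4 cells. When library totals replace TMM, every panel shifts upward in Cd4 and Cd8 cells with at least 20 relative to those under 20.

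Cd8 cells with at least 20 Ccl5 UMIs likewise had more Cd3g, Cd3e, Zap70, Lcp2, Fyn and Cd3d than Cd8 cells under 20. Cd3g was at 1307, 1284, 1276 and 1237 normalised CPM under 20 and at 2655, 2689, 3152 and 2983 with at least 20, a log2 fold change of 1.19 ± 0.05 (edgeR, adjusted p = 1.65e-08). Cd3e was at 582, 561, 526 and 564 against 980, 1027, 1090 and 1115, or 0.94 ± 0.05 (edgeR, adjusted p = 7.89e-08). Both rose in each of the 4 libraries. Zap70 went from 81.8, 79.4, 88.8 and 76.9 to 107, 106, 138 and 139 normalised CPM (0.59 ± 0.07, edgeR, adjusted p = 5.98e-05), Lcp2 from 85.6, 83.5, 79.5 and 79.6 to 110, 113, 118 and 117 (0.50 ± 0.06, edgeR, adjusted p = 2.22e-05) and Fyn from 109, 116, 116 and 120 to 155, 170, 142 and 160 (0.47 ± 0.06, edgeR, adjusted p = 4.45e-05). Cd3d rose by only 0.12 ± 0.04 (edgeR, adjusted p = 0.0199), a call lost without control library 2, knockdown library 1 or knockdown library 2 (adjusted p = 0.0774, 0.0940 and 0.122), and it was called in 12 of 18 alternatives in the test, the scaling, the cells or the libraries. Cd247, which had risen about as much as Zap70 in Cd4 cells, was at 142, 143, 134 and 141 normalised CPM under 20 and 173, 155, 134 and 146 with at least 20, and did not pass the test (0.14 ± 0.06, edgeR, adjusted p = 0.0697). With library totals it was at 0.49 (adjusted p = 1.92e-05), and it was also called without knockdown library 1 (0.17, adjusted p = 0.0390), with myeloid- and B-marked cells left out (0.16, adjusted p = 0.0361), and in 5 of the 18 alternatives in all. Lck was at 0.00 ± 0.05 (95% interval -0.09 to 0.09), and with library totals it was called at 0.35 (edgeR, adjusted p = 5.06e-05). Lat was at -0.12 ± 0.05 (edgeR, adjusted p = 0.0450), a call lost without control library 1 (-0.10, adjusted p = 0.136), control library 2 (-0.13, adjusted p = 0.0970) or knockdown library 1 (-0.12, adjusted p = 0.107), or with myeloid- and B-marked cells left out (-0.10, adjusted p = 0.0650). It was called in 11 of the 18 alternatives, and in 1 of them, library totals, it was reversed to 0.23. In all 7 of 9 members were called, 6 higher and 1 lower, where 54% of the 9790 genes tested were called; the median of the members was 0.47 and that of all genes 0.01. Library totals put the median of all genes at 0.36 and moved the split from 2641 higher and 2649 lower to 5299 and 1291. On that scale all 9 members were called higher, where 6590 of the 9790 genes were called.

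The change in Cd3g against Cd3d can be read without any scaling, as UMIs of one per UMI of the other in the same cells; capture differs between transcripts, so this is not a ratio of molecules. In Cd4 cells under 20 it was 0.978, 0.986, 1.07 and 1.10, and with at least 20 it was 2.21, 2.07, 2.23 and 2.29. In Cd8 cells it was 0.920, 0.915, 0.896 and 0.907 against 1.83, 1.83, 2.01 and 1.99. In both gates the ratio was higher with at least 20 in every library. In Foxp3 cells it was 0.921, 1.00, 1.05 and 1.10 under 20 and 1.058, 0.853, 1.43 and 1.26 with at least 20, from 13 to 24 cells per library. Control library 2 was lower there and the others higher. Cd3e UMIs per Cd3d UMI rose from between 0.456 and 0.469 to between 0.753 and 0.803 in Cd4 cells, and from between 0.369 and 0.413 to between 0.676 and 0.744 in Cd8 cells.

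Divided more finely by Ccl5 UMIs, Cd3g was nearly level at low Ccl5 and higher at high Ccl5. All CPM in this paragraph are normalised CPM, with TMM factors computed over the sums of these steps. Cd3g of Cd4 cells was at 1080, 1055, 1159 and 1069 in cells with 0 Ccl5 UMIs and at 1051, 1010, 1070 and 1075 in cells with 1 to 4. In cells with 20 to 79 it was at 3414, 2742, 3252 and 3390. Cells with 80 or more gave 3365, 3302, 3514 and 3395, close to the step before except in control library 2, which was higher. The step between, with 5 to 19 UMIs, held only 11 and 4 control cells and 31 and 60 knockdown cells, and the knockdown libraries gave 2341 and 2249 CPM there. In Cd8 cells Cd3g stayed at 1127 to 1236 CPM up to 4 Ccl5 UMIs, was at 1103, 1203, 1542 and 1320 in cells with 5 to 19, at 2090, 2078, 2801 and 2486 with 20 to 79 and at 2938, 2983, 3105 and 3015 with 80 or more. The control libraries were thus lower than the knockdown libraries at 5 to 19 and at 20 to 79, and closer to them in cells with the most Ccl5. Zap70 in Cd8 cells with 80 or more still stood apart, at 112 and 104 CPM in the controls and 132 and 133 CPM in the knockdown. Lat of Cd4 cells was at 369, 363, 369 and 347 CPM with 0 Ccl5 UMIs, at 216, 221, 203 and 192 with 20 to 79 and at 333, 325, 257 and 257 with 80 or more.

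**Figure D2:**
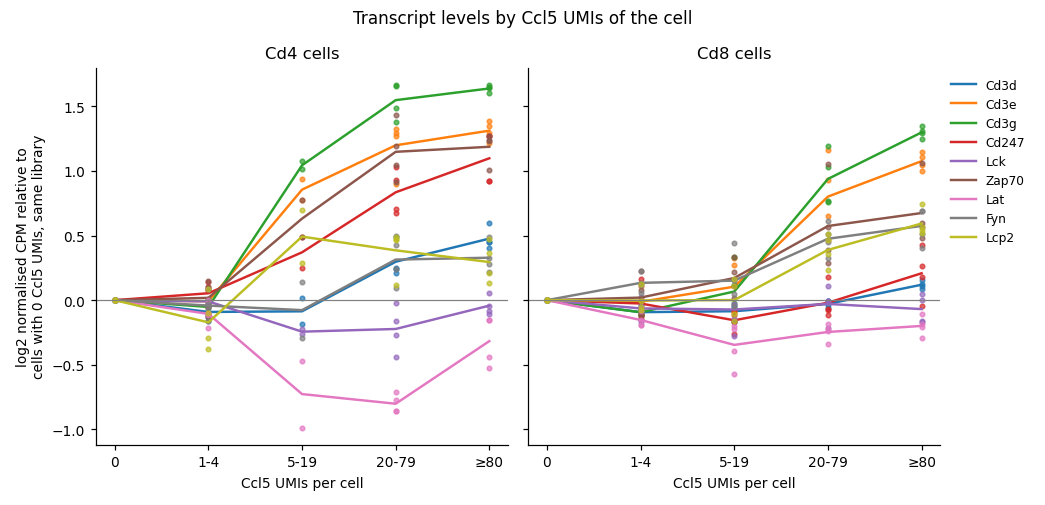
Log2 normalised CPM of each transcript relative to cells with 0 Ccl5 UMIs of the same library (vertical axis) by Ccl5 UMIs of the cell (horizontal axis, 5 steps); points are libraries, lines their means, and sums of under 20 cells are left out. Cd3g, Cd3e and Zap70 lie near 0 up to 4 UMIs and well above it from 20, and Lat of Cd4 cells lies below 0 from 20 on this scale, which library totals would shift upward.

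Cells of different gates under 20 Ccl5 UMIs were compared within libraries, and Cd3d, Cd247, Lcp2 and Fyn differed between Cd8 and Cd4 cells. Cd8 cells had more Cd3d than Cd4 cells (1421, 1404, 1424 and 1364 against 1158, 1115, 1145 and 1123 normalised CPM), a log2 fold change of 0.29 ± 0.03 (edgeR, adjusted p = 2.28e-07), which was at 0.11 with library totals. They had less Cd247 (142, 143, 134 and 141 against 186, 184, 184 and 193), or -0.43 ± 0.04 (edgeR, adjusted p = 3.72e-08), less Lcp2 (-0.39 ± 0.04, adjusted p = 6.64e-07) and less Fyn (-0.22 ± 0.04, adjusted p = 2.85e-04). Each of these 3 was lower in all 4 Cd8 sums than in any Cd4 sum. Cd3g was at 0.11 ± 0.04 (edgeR, adjusted p = 0.0262), lost without either control library (0.075 and 0.072, adjusted p = 0.246 and 0.202) and reversed to -0.070 with library totals and -0.068 with stricter gates. It was also lost with myeloid- and B-marked cells left out (0.089, adjusted p = 0.0637) and at a limit of 40 Ccl5 UMIs (0.060, adjusted p = 0.400), and was called in 7 of 18 alternatives. The 10 myeloid markers summed to 174, 207, 326 and 176 CPM in these Cd8 cells against 373, 289, 481 and 424 CPM in the Cd4 cells, lower in each library. The resting, regulatory T cell and tumor and stroma markers were also lower in the Cd8 cells of each library, and the natural killer markers higher. The part of these lists was not tested. Together 5 of 9 members were called, 2 higher and 3 lower, where 34.8% of all genes tested were called. Library totals put the median of all genes at -0.18, called 8 members and turned the split from 1841 higher and 1765 lower to 855 and 4058; with them Lck, Lat and Cd3e were at -0.12, -0.14 and -0.11, opposite in direction to 0.06, 0.04 and 0.07.

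Foxp3 cells under 20 Ccl5 UMIs had less Cd247, Lck and Lat and more Lcp2 than Cd4 cells under 20 on the TMM scale. Cd247 was at 133, 147, 145 and 135 normalised CPM (-0.38 ± 0.06, edgeR, adjusted p = 1.08e-04), Lck at 307, 317, 345 and 302 (-0.29 ± 0.05, adjusted p = 2.47e-04) and Lat at 291, 282, 308 and 272 (-0.28 ± 0.06, adjusted p = 8.73e-04). Lcp2 was at 126, 125, 135 and 126 against 107, 110, 107 and 104, or 0.29 ± 0.06 (edgeR, adjusted p = 0.00121). The 10 myeloid markers summed to 1202, 530, 659 and 872 CPM in these Foxp3 cells against 373, 289, 481 and 424 CPM in the Cd4 cells, with Csf1r at 0 in 1 of the 8 sums. The 6 B cell markers summed to 272, 328, 367 and 306 CPM against 212, 206, 176 and 154 CPM, so both lists were higher in the Foxp3 cells of each library. With cells holding 5 or more myeloid and B marker UMIs left out, Cd247, Lck, Lat and Lcp2 were at -0.26, -0.29, -0.33 and 0.26 (edgeR, adjusted p = 0.0138, 0.00105, 3.75e-04 and 0.0194). Cd3e was at -0.16 ± 0.05 (edgeR, adjusted p = 0.0179), lost without either control library (adjusted p = 0.105 and 0.0945) and called in 11 of 18 alternatives. In total 5 of 9 were called, 1 higher and 4 lower, where 40.4% of all genes tested were. Library totals put the median of all genes at 0.26 and moved the split from 1981 higher and 1723 lower to 3861 and 709. With them Lck and Lat were at -0.02 and 0.00 and Cd247 at -0.10, none past the test, Lcp2 was at 0.56, and Cd3e, Zap70, Cd3g and Fyn turned to 0.11, 0.20, 0.26 and 0.18, so only the higher Lcp2 was called on both scales in the same direction.

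Whole Cd4 cells from knockdown tumors had more Cd3g, Cd3e, Zap70, Cd247 and Cd3d RNA than those from control tumors, and less Lat. Cd3g was at 1337 and 1316 normalised CPM in the controls against 2382 and 2323 in the knockdown, a log2 fold change of 0.85 ± 0.03 (edgeR, adjusted p = 1.62e-21). Cd3e was at 603 and 589 against 895 and 857 (0.58 ± 0.03, adjusted p = 3.91e-16) and Zap70 at 92.8 and 91.4 against 141 and 138 (0.62 ± 0.05, adjusted p = 2.79e-12). In these 3 genes both knockdown libraries lay far above both controls. Cd247 was at 203 and 207 against 256 and 269 normalised CPM (0.38 ± 0.04, adjusted p = 1.16e-09), and Cd3d at 1194 and 1164 against 1349 and 1302 (0.20 ± 0.03, adjusted p = 4.24e-06). Lat fell, from 376 and 374 to 282 and 280 (-0.39 ± 0.04, adjusted p = 1.2e-10). Lck, Fyn and Lcp2 were at 0.02 ± 0.04, 0.05 ± 0.05 and 0.07 ± 0.05 and did not pass the test; the 95% interval for Lck was -0.05 to 0.09. In all 6 of 9 members were called, 5 higher and 1 lower, where 43.6% of the 11277 genes tested were called, and the same 6 were called in each of 15 alternatives that changed the test, the scaling, the cells or the libraries. Asking for a log2 fold change of at least 0.5 as well left 3, and 23.4% of all genes. In the same sums the resting T cell markers went from 2012 and 1999.9 CPM in the controls to 925 and 981 CPM, the effector T cell markers from 3175 and 3525 to 16930 and 14993 CPM, and the natural killer markers from 21.5 and 21.5 to 126 and 121 CPM. The gamma-delta markers went from 33.7 and 29.7 to 136 and 127 CPM and the B cell markers from 201 and 192 to 109 and 97.7 CPM. The 4 regulatory T cell markers, with Foxp3 itself at 0 by the gate, went from 62.1 and 68.0 to 224 and 221 CPM, and the tumor and stroma markers from 65.0 and 62.2 to 46.4 and 43.5 CPM. None of these overlapped between the groups, while the myeloid markers did (364 and 288 against 373 and 341 CPM). The part of these lists in the result was not tested. Library totals put the median of all genes at 0.10 and moved the split from 2490 higher and 2427 lower to 3242 and 1610, and added Lck, Fyn and Lcp2 at 0.13, 0.16 and 0.17.

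In whole Cd8 cells Cd3g, Cd3e and Zap70 were again higher and Lat lower, and Fyn and Lcp2 were higher as well. Cd3g was at 1520 and 1546 normalised CPM against 2455 and 2201 (0.62 ± 0.04, edgeR, adjusted p = 4.17e-11), Cd3e at 646 and 648 against 881 and 867 (0.45 ± 0.04, adjusted p = 8.21e-10) and Zap70 at 86.1 and 84.6 against 120 and 111 (0.45 ± 0.05, adjusted p = 1.31e-07). Lcp2 was at 89.8 and 89.3 against 104 and 100 (0.20 ± 0.05, adjusted p = 0.00223). Fyn was at 117 and 126 against 133 and 142 (0.20 ± 0.05, adjusted p = 0.00302), lost without control library 1 (0.13, adjusted p = 0.127) or knockdown library 2 (0.14, adjusted p = 0.0526). Lat fell from 396 and 392 to 327 and 328 (-0.25 ± 0.04, adjusted p = 1.25e-05). Cd3d, Cd247 and Lck were at 0.07 ± 0.04, -0.05 ± 0.05 and 0.02 ± 0.04 and did not pass the test. Library totals called Cd3d (0.15, adjusted p = 0.00222) and Lck (0.10, adjusted p = 0.0288), and Cd3d was also called without knockdown library 2 (0.11, adjusted p = 0.0394). DESeq2 did not call Fyn or Lcp2 (0.19 and 0.20, adjusted p = 0.0679 and 0.0808). Called members were 6 of 9, 5 higher and 1 lower, where 40.9% of the 11452 genes tested were called. The split of all calls was 2392 higher and 2289 lower, and with library totals 3080 and 1587. The resting T cell markers went from 1647 and 1610 to 711 and 794 CPM, the effector markers from 3536 and 4240 to 17801 and 16070 CPM, and the natural killer markers from 34.1 and 38.8 to 140 and 115 CPM. The gamma-delta markers went from 36.1 and 47.6 to 169 and 151 CPM and the B cell markers from 209 and 204 to 93.8 and 105 CPM. The regulatory T cell markers went from 22.3 and 29.2 to 104 and 105 CPM and the tumor and stroma markers from 38.4 and 38.1 to 26.7 and 27.0 CPM. No list of these overlapped between the groups, while the myeloid markers did (184 and 243 against 271 and 221 CPM). Their part in the result was not tested.

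In Foxp3 cells 2 of 9 members were called, both higher, where 4.52% of genes were. Cd3g was at 1048 and 1051 normalised CPM against 1344 and 1316 (0.34 ± 0.05, edgeR, adjusted p = 2.78e-04), and Cd3e at 444 and 440 against 518 and 524 (0.23 ± 0.06, adjusted p = 0.0452). Neither overlapped between groups. The share of all genes that separated in this way is not given, so nothing is read from separation alone. Members that were not called did not overlap either. These were Zap70, Cd3d (1127 and 1061 against 1227 and 1174 normalised CPM) and Lcp2 (126 and 126 against 133 and 131). Both calls were lost without control library 1 or control library 2, where the lone control was assumed to vary like the knockdown libraries. Cd3g was then at 0.33 and 0.33 and Cd3e at 0.24 and 0.22. Without knockdown library 1 or 2 only the Cd3e call was lost. The share of all genes called was also lower in each of these fits. Over 15 alternatives Cd3g was called in 11 and Cd3e in 7, and stricter gates put them at 0.23 and 0.08 (adjusted p = 0.165 and 0.774). The effector T cell markers summed to 905 and 1072 CPM in the controls against 2999 and 3042 CPM in these cells, the resting markers to 1564 and 1522 against 1159 and 1106 CPM, and the natural killer markers to 4.57 and 7.33 against 16.3 and 15.4 CPM. The gamma-delta markers summed to 23.2 and 8.62 against 38.5 and 33.8 CPM and the regulatory T cell markers to 1769 and 1903 against 2006 and 2012 CPM. None of these overlapped, while the myeloid, B cell and tumor and stroma lists did, and their part was not tested. Zap70 was at 73.3 and 77.8 against 92.2 and 99.2 normalised CPM (0.33 ± 0.11, adjusted p = 0.101), and Lat at 293 and 283 against 296 and 273 (-0.02 ± 0.08, 95% interval -0.18 to 0.13). Foxp3 cells with at least 20 Ccl5 UMIs numbered 13 to 24 per library and were not tested.

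Within the Ccl5 classes of Cd4 cells, Lat was lower in the knockdown in both, and of the CD3 chains Cd3g passed the test under 20 and Cd247 with at least 20. The classes themselves were not alike between the groups. Under 20, the effector T cell markers summed to 190 and 192 CPM in the controls against 1320 and 1377 CPM in the knockdown, and the resting T cell markers to 2145 and 2160 against 1667 and 1705 CPM. With at least 20, the effector markers summed to 44994 and 43187 against 34994 and 31895 CPM, and the resting markers to 146 and 90.2 against 66.6 and 81.8 CPM. The effector list holds Ccl5, whose UMIs set the classes, and no sum without Ccl5 is given. That list therefore does not show by itself that the classes differed. Under 20, the myeloid markers summed to 373 and 289 against 481 and 424 CPM and the natural killer markers to 3.15 and 2.27 against 12.4 and 14.5 CPM. The gamma-delta markers summed to 11.2 and 9.41 against 26.7 and 19.6 CPM and the regulatory T cell markers to 41.7 and 47.5 against 108 and 97.9 CPM. The B cell markers were lower there in the knockdown (212 and 206 against 176 and 154 CPM), as were those of tumor and stroma (68.3 and 65.4 against 62.8 and 55.8 CPM). With at least 20, the gamma-delta markers summed to 350 and 272 against 262 and 260 CPM, the regulatory T cell markers to 347 and 312 against 359 and 373 CPM and those of tumor and stroma to 18.8 and 23.8 against 27.3 and 28.1 CPM. The myeloid, natural killer and B cell lists overlapped there. None of the pairs given in numbers overlapped between the groups, and their part in the changes within classes was not tested. In Cd4 cells with at least 20 Ccl5 UMIs Cd3g was at 0.04 ± 0.06 (95% interval -0.08 to 0.15), Cd3e at 0.00 ± 0.06 (-0.11 to 0.12) and Zap70 at -0.03 ± 0.09 (-0.21 to 0.15). Lat was at 299 and 316 normalised CPM against 245 and 239 (-0.36 ± 0.08, edgeR, adjusted p = 0.00210), and Cd247, the reverse of the whole gate, at 385 and 420 against 331 and 355 (-0.24 ± 0.07, adjusted p = 0.0452). These 2 members were called, both lower, where 4.59% of genes were; the split of all calls was 186 higher and 216 lower, and 139 and 450 with library totals. The Cd247 call was lost without control library 2, knockdown library 1 or knockdown library 2 (-0.18, -0.19 and -0.29, adjusted p = 0.370, 0.503 and 0.166), and the Lat call without knockdown library 2 (-0.33, adjusted p = 0.108) or with stricter gates (-0.27, adjusted p = 0.120). Over 18 alternatives Cd247 was called in 8 and Lat in 16. In Cd4 cells under 20, Lat was at 383 and 380 against 333 and 332 (-0.18 ± 0.04, edgeR, adjusted p = 0.00180) and Cd3g at 1132 and 1098 against 1229 and 1235 (0.16 ± 0.03, adjusted p = 3.86e-05), and these 2 were the members called, where 10.5% of genes were. The Lat call was lost when cells with 5 or more myeloid and B marker UMIs were left out (-0.12, adjusted p = 0.100), and was made in 15 of 18 alternatives. In the finer steps given above, the normalised CPM of Lat overlapped between the groups in Cd4 cells with no Ccl5 UMI. The value for Cd3g moved with the limit: it was 0.06 (adjusted p = 0.197) at 10 Ccl5 UMIs, where the call was lost, and 0.39 (adjusted p = 2.38e-09) at 40, and it was 0.46 with stricter gates. Zap70 was at 0.18 ± 0.07 (adjusted p = 0.104) and was called in 6 of the 18. Cd3e was at 0.00 ± 0.03 there, and at 0.17 (adjusted p = 0.00165) when the limit was 40 Ccl5 UMIs.

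In Cd8 cells with at least 20 Ccl5 UMIs, Cd3g, Zap70 and Cd3e were higher in the knockdown and Cd247 and Lat lower. The markers of this class moved with the groups too: the resting T cell markers summed to 585 and 467 CPM in the controls against 144 and 135 CPM in the knockdown, and the effector T cell markers to 23505 and 24181 against 31048 and 31328 CPM. Here and under 20 the effector list holds Ccl5, whose UMIs set the classes, so its sums are not independent of the limit. The natural killer markers went from 158 and 171 to 235 and 214 CPM, the gamma-delta markers from 242 and 267 to 290 and 285 CPM and the regulatory T cell markers from 119 and 131 to 174 and 191 CPM. The B cell markers went from 70.4 and 71.6 to 41.4 and 37.3 CPM and those of tumor and stroma from 39.3 and 33.8 to 21.5 and 23.9 CPM. None of these lists overlapped between the groups, while the myeloid markers did (257 and 449 against 227 and 268 CPM), and their part in the changes was not tested. Cd3g was at 2655 and 2689 normalised CPM against 3152 and 2983 (0.19 ± 0.04, edgeR, adjusted p = 1.48e-04) and Zap70 at 107 and 106 against 138 and 139 (0.37 ± 0.07, adjusted p = 2.35e-04). Cd3e was at 980 and 1027 against 1090 and 1115 (0.13 ± 0.04, adjusted p = 0.0309). In all 3 both knockdown libraries were above both controls. Cd247 fell from 173 and 155 to 134 and 146 (-0.23 ± 0.07, adjusted p = 0.0232) and Lat from 345 and 361 to 310 and 326 (-0.15 ± 0.05, adjusted p = 0.0428). Called were 5 of 9, where 11.4% of genes were, with a split of all calls of 497 higher and 594 lower, or 376 and 728 with library totals. Cd3g and Zap70 were called in 18 of 18 alternatives, at 0.13 to 0.26 and 0.33 to 0.39. Calls over all genes were also fewer without control library 1, knockdown library 1 or knockdown library 2. The Lat call was lost without any 1 of the 4 libraries (-0.18, -0.12, -0.12 and -0.19, adjusted p = 0.0956, 0.356, 0.361 and 0.0751). That of Cd3e was lost without control library 1, knockdown library 1 or knockdown library 2 (0.10, 0.15 and 0.12, adjusted p = 0.211, 0.0855 and 0.241), with library totals (0.08, adjusted p = 0.186) or with myeloid- and B-marked cells left out (0.09, adjusted p = 0.224). That of Cd247 was lost without control library 1 or knockdown library 1 (-0.14 and -0.17, adjusted p = 0.414 and 0.268). Over 18 alternatives Cd3e and Lat were called in 9 each and Cd247 in 13. In Cd8 cells under 20 the resting markers summed to 1795 and 1807 against 1421.5 and 1438 CPM, and the effector markers to 764 and 801 against 1205 and 1192 CPM. The B cell markers summed to 228 and 226 against 159 and 171 CPM, and the natural killer (16.8 and 15.9 against 20.5 and 17.7 CPM), gamma-delta (7.53 and 9.77 against 17.6 and 19.8 CPM) and regulatory T cell markers (8.83 and 11.6 against 15.8 and 20.4 CPM) were higher in the knockdown. The tumor and stroma markers were lower in the knockdown, and the part of these lists in the changes under 20 was not tested. There only Lat was called, at 403 and 397 against 349 and 334 normalised CPM (-0.22 ± 0.04, edgeR, adjusted p = 4.96e-04), where 7.69% of genes were; all calls split 441 higher and 374 lower, or 316 and 859 with library totals. Cd3g was at -0.03 ± 0.03 and Cd3e at -0.04 ± 0.04, and with library totals they were called lower at -0.10 and -0.12. Lat in these cells was called in 18 alternatives that changed the test, the scaling, the cells or the libraries, and was not called when a log2 fold change of at least 0.5 was asked for as well.

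**Figure D3:**
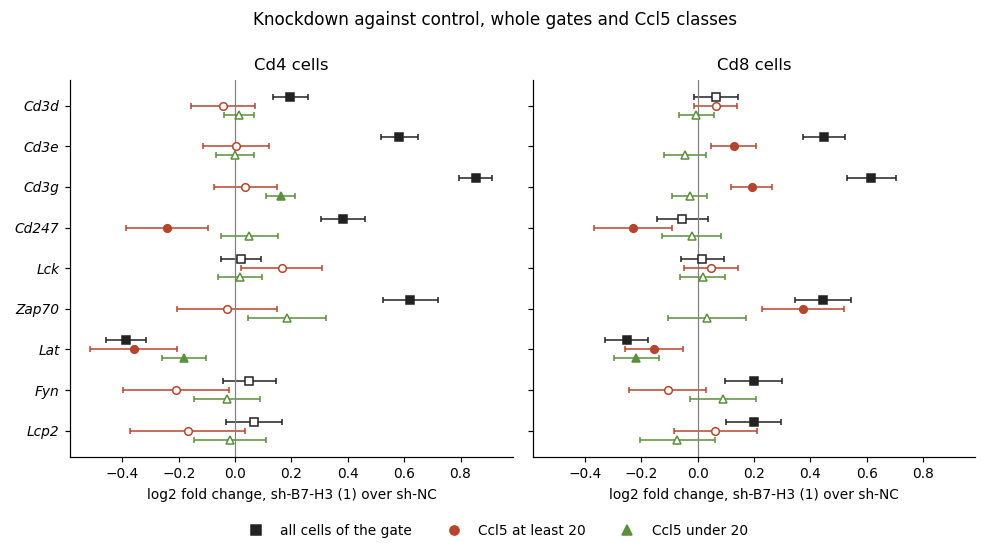
Log2 fold change of knockdown over control (horizontal axis) for the 9 transcripts in whole Cd4 and Cd8 gates (squares), cells with at least 20 Ccl5 UMIs (circles) and cells under 20 (triangles), with bars of 95% intervals and filled symbols for adjusted p under 0.05 in edgeR. Cd3g, Cd3e and Zap70 lie far to the right for whole gates and less far right, or near 0, within classes, where Cd3g is filled in Cd4 cells under 20 and Cd8 cells with at least 20, and Lat lies left of 0 in all 6 comparisons.

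The difference between the knockdown effects in the 2 classes was tested as an interaction. In Cd4 cells no member was called where 4.1% of genes were, with Cd247 at -0.28 ± 0.09 (edgeR, adjusted p = 0.0728). DESeq2 called no member either, with fewer calls over all genes as well. Cd247 was called in 7 of 17 alternatives, among them without control library 1 (-0.34, adjusted p = 0.0305), and Cd3g in 2, stricter gates and a limit of 40 (-0.39 and -0.33, adjusted p = 4.15e-04 and 3.22e-05). In Cd8 cells the effect was larger with at least 20 Ccl5 UMIs for Cd3g (0.23 ± 0.04, adjusted p = 3.59e-06) and Cd3e (0.19 ± 0.05, adjusted p = 0.00836), where 3.9% of genes were called. Zap70 was at 0.35 ± 0.11 (adjusted p = 0.0503) and was called in 4 of 17 alternatives, among them library totals (0.36, adjusted p = 0.0423) and without knockdown library 1 (0.45, adjusted p = 0.0232). The Cd3e call was lost without control library 1 (0.11, adjusted p = 0.465) or knockdown library 1 (0.17, adjusted p = 0.0650). With cells of 5 or more myeloid and B marker UMIs left out, Cd3g was at 0.15 and Cd3e at 0.16, neither past the test (adjusted p = 0.0569 and 0.168). With a limit of 40 Ccl5 UMIs they were at 0.03 and 0.01 (adjusted p = 0.875 and 0.977). For Lat the difference between classes was -0.17 ± 0.09 in Cd4 cells and 0.08 ± 0.06 in Cd8 cells, neither past the test.

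How much of the whole-gate ratio goes with the share of UMIs in each class was set out by arithmetic, chosen after the values were seen. Cells with at least 20 Ccl5 UMIs held 7.21% of the UMIs of Cd4 cells in the controls and 45.5% in the knockdown libraries, and 13.5% and 52.5% for Cd8 cells. On the log2 ratio of plain CPM, Cd3g of Cd4 cells measured 0.96. With the control levels of each class and the knockdown shares it was 0.96, and with the control shares and the knockdown levels 0.09. The corresponding values were 0.69, 0.75 and -0.04 for Cd3e, 0.73, 0.76 and 0.11 for Zap70 and 0.49, 0.70 and -0.04 for Cd247. Lat went the other way, with -0.28 measured, 0.03 from shares and -0.23 from levels. In Cd8 cells Cd3g measured 0.70 with 0.61 from shares and -0.02 from levels, Cd3e 0.54 with 0.51 and -0.07, Zap70 0.54 with 0.32 and 0.06, and Lat -0.16 with 0.07 and -0.27. These values carry no test, and which cells were counted in each class depends on the Ccl5 limit. The exchange was made on plain CPM only. With library totals Lat differed between the classes by -0.04 in Cd4 cells and 0.23 in Cd8 cells, while TMM put it lower with at least 20 in both gates. The value of Lat from shares may thus depend on the scale, and the exchange was not made with TMM.

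**Figure D4:**
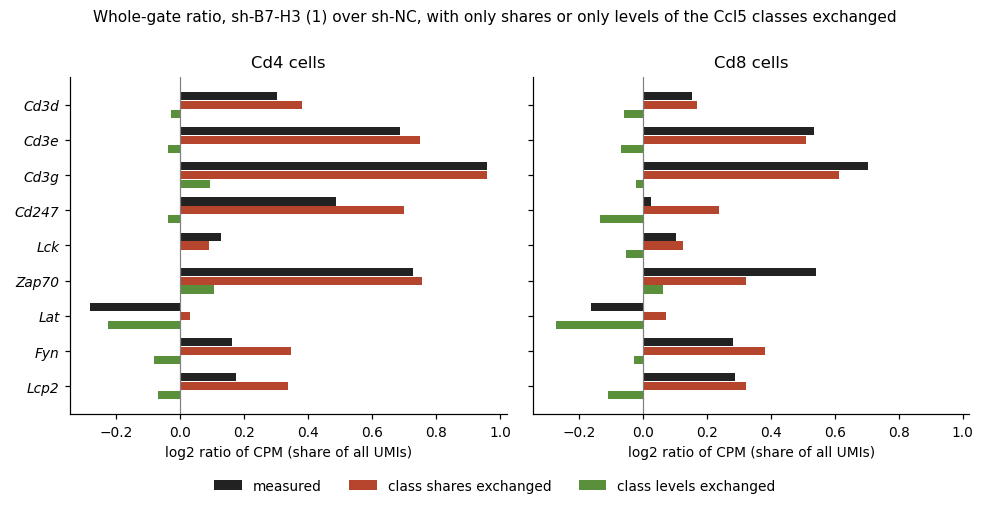
Log2 ratio of CPM, knockdown over control, in whole Cd4 and Cd8 gates as measured (black), with only the shares of the 2 Ccl5 classes exchanged (red) and with only the levels within classes exchanged (green), from the mean of 2 libraries a group, with no error shown. On this plain CPM scale, without TMM, the red bars of Cd3g, Cd3e and Zap70 are nearer to the black than the green, and for Lat the green.

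Cells were thinned to 2000 UMIs each, which left out 32 cells or fewer per gate and library, and those with at least 1 UMI were counted. Cd3e was seen in 62.3% and 61.0% of control Cd4 cells and 73.4% and 73.6% of knockdown Cd4 cells, and in 61.9%, 63.0%, 72.8% and 75.6% of Cd8 cells in the same order. Zap70 was seen in 15.7%, 14.9%, 23.1% and 23.8% of Cd4 cells and 12.7%, 13.8%, 20.1% and 18.3% of Cd8 cells. Lat was seen in 49.0%, 48.2%, 44.0% and 42.0% of Cd4 cells and 48.9%, 48.7%, 42.7% and 43.8% of Cd8 cells. The shares of both knockdown libraries lay above those of both controls for Cd3e and Zap70 and below them for Lat; these differences were not tested. UMIs of all 4 CD3 chains together were found in 12.2%, 13.6%, 14.0% and 10.7% of Cd4 cells under 20 Ccl5 UMIs and in 47.1%, 51.1%, 41.0% and 46.5% of those with at least 20. As a background for free RNA, barcodes marked by myeloid genes held Cd3e in 31.0%, 31.6%, 18.6% and 25.4%, Zap70 in 2.38%, 2.63%, 7.14% and 4.76% and Lat in 33.3%, 34.2%, 17.1% and 6.35%. The shares of these barcodes with Zap70 and Lat moved between the groups in the same direction as those of the T cells. Few of the barcodes held Zap70, and in the free RNA given above Zap70 overlapped between the groups. Cd3e was lower in the marked barcodes of the knockdown and higher in its free RNA, and none of this was tested. Only 38 to 70 such barcodes per library were deep enough, with median UMIs of 5246, 4858, 2170 and 2033, and remaining doublets with T cells among them were not tested. Not thinned, at median UMIs of 7528, 8051, 6851 and 6904, Cd3e was seen in 95.8%, 96.6%, 94.0% and 94.0% of Cd4 cells, Zap70 in 43.5%, 45.7%, 54.7% and 54.1% and Lat in 89.7%, 90.4%, 80.1% and 78.8%, so the order for Cd3e at full depth went against its level and none is read from it.

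The CD3 antibody tag, the one surface product of these genes in the antibody panel, gave an answer that depended on what it was divided by. Per 1000000 UMIs of all tags it was at 1922 and 1758 in control Cd4 cells and 2267 and 2548 in knockdown Cd4 cells, at 1684 and 1623 against 2145 and 2180 in Cd8 cells, and at 2269 and 1988 against 2820 and 2686 in Foxp3 cells. The groups did not overlap in any gate, with ratios of 1.31, 1.31 and 1.29 and an exact two-sided permutation p of 0.33, the smallest that 2 against 2 libraries can give. As mean tag UMIs per cell the ratios were 1.18, 1.08 and 1.05, and per UMI of the isotype control tags, which bind no mouse target, 1.01, 0.91 and 0.88. In Cd8 and Foxp3 cells the last scale put both knockdown libraries below both controls. The cells had been stained with an anti-CD3 antibody for the sort before the tags were added, and its part in the tag counts was not tested. The tag of the receptor beta chain, added after its values were seen, was at 18470 and 18495 per 1000000 tag UMIs in control Cd4 cells against 15823 and 16382 in the knockdown. Only this gate and this scale are given for it, so its direction elsewhere is not described. The CD3 tag ratio changed with the scale, so no contrast between these tags is read here.

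**Figure D5:**
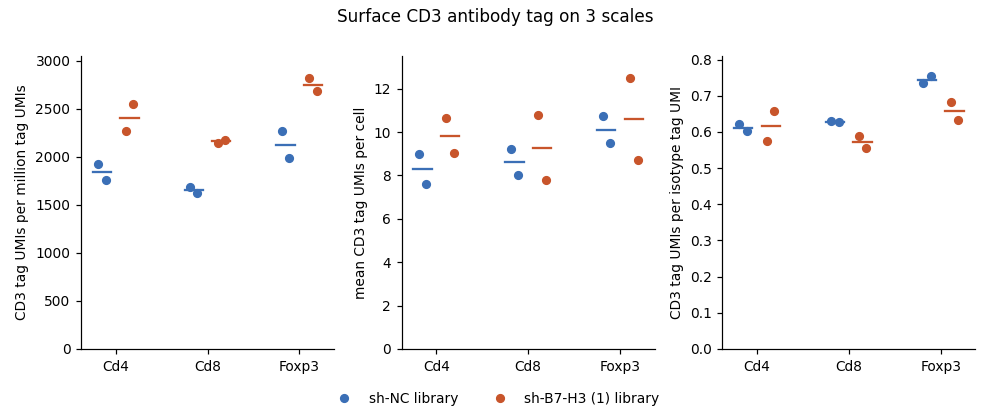
CD3 antibody tag in Cd4, Cd8 and Foxp3 cells on 3 scales: UMIs per 1000000 tag UMIs, mean UMIs per cell and UMIs per isotype control UMI; points are libraries and bars the mean of 2. Knockdown libraries are above the controls on the first scale, overlap them in Cd8 and Foxp3 cells on the second, and on the third overlap them in Cd4 cells and lie below them in the others.

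The other genes of the proximal pathway were taken from a list of 60: 6 kinases, 10 phosphatases, 21 adaptors and scaffolds, 4 ubiquitin ligases and 19 genes of the calcium, RAS and NF-kB arms. Between the Ccl5 classes of Cd4 cells, 21 of the 58 tested were higher with at least 20 and 23 lower, 75.9% called where 53.3% of all genes were, with a median log2 fold change of -0.02. With library totals 31 were higher and 12 lower, with a median of 0.32, so the balance turned. Phosphatases were mostly higher (7 higher and 1 lower of 10) and the calcium, RAS and NF-kB arms mostly lower (2 higher and 11 lower of 19) on the TMM scale. With library totals the counts were 9 and 1 for phosphatases and 5 and 3 for the arms, so the lower direction of the arms was lost. The largest called changes (counting genes whose mean reached 20 normalised CPM) were falls of Pag1, an adaptor that recruits the Lck inhibitor Csk (-3.94 ± 0.20), of Tespa1, an adaptor that acts in thymocyte selection (-3.57 ± 0.11), and of Dgka, the kinase that removes diacylglycerol (-2.59 ± 0.11). Increases were led by Ubash3b, a phosphatase that acts on ZAP-70 (2.52 ± 0.10), Sh2d2a, an adaptor of Lck (2.13 ± 0.12), and Sla2, an adaptor that lowers receptor signaling (1.70 ± 0.11). In Cd8 cells 28 rose and 19 fell of 58, 81.0% called where 54% of all genes were, with a median of 0.08. With library totals 37 rose and 6 fell, with a median of 0.43. On the TMM scale all 21 adaptors were called, 14 higher and 7 lower, or 14 and 3 with library totals. Pag1 (-1.93 ± 0.11), Dgka (-1.72 ± 0.09) and the kinase Txk (-1.59 ± 0.14) fell, and Sh2d2a (1.81 ± 0.05), Ubash3b (1.74 ± 0.09) and the adaptor Lax1 (1.65 ± 0.08) rose. All of these named genes were called in edgeR, with the same sign in the 4 libraries, and each was also called with library totals.

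Between knockdown and control, 22 of 59 rose and 25 fell in whole Cd4 cells, and 23 rose and 19 fell in whole Cd8 cells, medians of -0.07 and 0.04. That is 79.7% and 71.2% called, where 43.6% and 40.9% of all genes were. With library totals the counts were 24 and 19 in Cd4 cells and 29 and 11 in Cd8 cells, which turns the balance in Cd4 cells. Ubash3b went from a mean of 29.6 to 106 normalised CPM in Cd4 cells (1.86 ± 0.07) and from 21.0 to 47.8 in Cd8 cells (1.19 ± 0.09). Sh2d2a rose by 1.04 ± 0.05 and 0.93 ± 0.05, and Cblb, a ubiquitin ligase that restrains activation, by 1.07 ± 0.06 and 0.89 ± 0.06. In Cd4 cells Sla2 rose (0.96 ± 0.07) and Sit1 and Tespa1 fell (-0.88 ± 0.07 and -0.88 ± 0.05); in Cd8 cells Lax1 and Nfatc1, a calcium-dependent transcription factor, rose (0.80 ± 0.07 and 0.77 ± 0.07) and Txk fell (-0.79 ± 0.05). Within the Ccl5 classes the counts were 4 higher and 5 lower of 56 in Cd4 cells with at least 20, 8 and 6 of 58 in Cd4 cells under 20, 7 and 8 of 58 in Cd8 cells with at least 20, and 4 and 2 of 58 in Cd8 cells under 20. These are 16.1%, 24.1%, 25.9% and 10.3% of the list, where 4.59%, 10.5%, 11.4% and 7.69% of all genes were called, so the calls were fewer than in the whole gates over all genes too. With library totals these counts were 3 and 11, 4 and 8, 3 and 9, and 3 and 10. Ubash3b passed in both classes of Cd4 cells (0.46 ± 0.10 and 0.86 ± 0.12), and Dusp2, a phosphatase of MAP kinases, fell in both gates under 20 (-0.37 ± 0.05 and -0.31 ± 0.05). In Cd8 cells with at least 20, Txk (-0.89 ± 0.12) and Tespa1 (-0.65 ± 0.11) fell and Trat1, an adaptor that binds the receptor, rose (0.71 ± 0.14). In Foxp3 cells 1 of 58 was called, Dusp2 (-0.40 ± 0.10), where 4.52% of all genes were. Against Cd4 cells under 20, 8 rose and 27 fell of 58 in Cd8 cells, with Trat1 (-2.07 ± 0.06) and Cd5 (-1.10 ± 0.05) lowest, and 17 rose and 19 fell in Foxp3 cells, with Matk highest (2.19 ± 0.15) and Themis lowest (-1.72 ± 0.10). With library totals these counts were 3 and 41, and 30 and 11. On the TMM scale 60.3% and 62.1% of the list were called in these comparisons, where 34.8% and 40.4% of all genes were.

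Over 22 sums of gate, Ccl5 class and library, each member's most similar gene among 4826 was found by Pearson correlation of log2(CPM + 1). Cd3e and Cd3g were each other's nearest (r = 0.99). The nearest of Cd3d was Pdcd6ip (r = 0.97), of Zap70 Sept11 (r = 0.97), of Lcp2 Gng5 (r = 0.98), of Fyn Ptprc (r = 0.96), of Lck Tgoln1 (r = 0.94) and of Cd247 Eif4g3 (r = 0.91). Lat stood furthest from the rest, with Smchd1 as nearest gene (r = 0.87) and correlations of 0.03 to 0.33 with the other members. The sums share libraries, and classes with at least 20 and under 20 differ in most genes, so these values are a description. The CPM here were not scaled by TMM, whose factors for these sums ran from 0.756 to 1.24, so the correlations may depend on the scale.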

How the data were processed

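The authors sequenced RNA and antibody tags of sorted CD3+ cells (10x 3' chemistry) and made UMI count matrices with Cell Ranger on mm10; these deposited counts are whole numbers and not normalized. Cells with 200 to 3000 genes and at most 5% mitochondrial UMIs were kept, the limits of the study's methods. Doublets were removed per library by comparison with 2 simulated doublets per cell (2000 variable genes, 30 components, 50 neighbors, Otsu threshold). UMIs were summed per library, gate and Ccl5 class, and tested with edgeR 4.0.16 in R 4.3.3 (TMM factors, quasi-likelihood test, Benjamini-Hochberg adjustment over all genes passing the count filter, called at an adjusted p under 0.05). Comparisons between classes and gates had library as a block, and the code was tested on simulated data. The CD3 tag was compared by an exact permutation test. Intervals of shares cover counting error only. Statements that groups did not overlap describe 2 against 2 libraries. They are not set against the share of all genes that did not overlap. DESeq2 1.42.0, other scalings, cell filters, gates, Ccl5 limits and the removal of each library were alternatives; library totals were added after seeing the data. With 1 library left out, the lone library of its group was assumed to vary like the others. The 9 members, the gene lists and the tests were chosen with earlier results of these data known. Named pathway genes were at most 6 per comparison, called, with a mean of at least 20 CPM, groups apart, by size of change. The labels do not say what the replicate numbers mark; deviations of same-numbered libraries from their group means correlated at -0.02, -0.02 and -0.01 in Cd4, Cd8 and Foxp3 cells, so the numbers were not taken as pairs. The labels write sh_NC and the figures sh-NC.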

Additional observations from a re-analysis of the deposited data

Results flagged for a closer look

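Of the results above, 2 were picked out because the knockdown effect differed between the Ccl5 classes of Cd8 cells by the interaction test. For Cd3g the log2 fold change was larger by 0.23 with at least 20 Ccl5 UMIs, and over the 17 alternatives it lay between 0.03 and 0.32 and was called in 15. For Cd3e it was larger by 0.19, and over the same alternatives it lay between 0.01 and 0.26 and was called in 10. No explanation was tested for either.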

How the results depend on the processing

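The causes of the changes below were not tested, and shares in parentheses are of all genes called in the same fit. Requiring a log2 fold change of at least 0.5 as well left called members at 3 in whole Cd4 cells (23.4%), 1 in whole Cd8 cells (20.2%), and 4 and 3 between the Ccl5 classes of Cd4 and Cd8 cells (40.2% and 35.1%). It left 0 in Foxp3 cells (2.19%), in the upper and lower classes of Cd4 cells (2.41% and 4.54%) and of Cd8 cells (5.14% and 2.47%), between Cd8 or Foxp3 and Cd4 cells (13.1% and 24.9%) and in the Cd8 interaction (2.38%). In Foxp3 cells knockdown calls were 1 with DESeq2 (2.10%) or no upper gene limit (5.99%) and 0 with no low-count filter (0.0716%) or strict gates (1.59%). In Cd4 cells with at least 20 Ccl5 UMIs they were 1 with DESeq2 (1.42%), no low-count filter (2.78%), no upper gene limit (3.98%), myeloid- and B-marked cells left out (5.15%), a limit of 40 (3.15%), or 20 per 10000 UMIs (4.57%), and 0 with strict gates (2.31%). In Cd4 cells under 20 they were 1 with DESeq2 (4.07%), marked cells left out (8.31%) or a limit of 10 (7.04%), and 4 with a limit of 40 (16.9%). In Cd8 cells with at least 20 they were 2 with DESeq2 (3.67%) and 3 with a limit of 10 (14.3%) or a 10% mitochondrial limit (10.7%), and under 20 they were 4 with library totals (11.1%). Library totals called 8 for Cd8 against Cd4 cells (47.5%). The Cd4 interaction gave 1 with strict gates (3.48%), the 10% mitochondrial limit (3.89%), library totals (4.43%), RLE factors (4.26%) or either other doublet setting (3.64% and 4.10%), and 2 with a limit of 40 (5.64%). The Cd8 interaction gave 1 with DESeq2 (1.27%) or either other doublet setting (4.81% and 3.99%), 4 with no low-count filter (2.32%), and 0 with marked cells left out (1.92%) or a limit of 40 (2.90%).

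Directions turned for Cd3e under 20 in Cd4 cells at a limit of 40 (0.17) and for Cd3g in Cd8 against Cd4 cells with strict gates (-0.068). Library totals turned Lck between classes to 0.28 in Cd4 and 0.35 in Cd8 cells, Lat between classes of Cd8 cells to 0.23, Lck, Lat, Cd3g and Cd3e in Cd8 against Cd4 cells to -0.12, -0.14, -0.070 and -0.11, and Zap70, Cd3g, Cd3e and Fyn in Foxp3 against Cd4 cells to 0.20, 0.26, 0.11 and 0.18. CD3 tag ratios in Cd4, Cd8 and Foxp3 cells were 1.18, 1.08 and 1.05 per cell and 1.01, 0.91 and 0.88 per isotype UMI, and 1.34 in Cd8 cells with doublets kept.

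Leaving out 1 library gave CD3 tag ratios of 1.23 to 1.38, 1.28 to 1.33 and 1.21 to 1.38 in Cd4, Cd8 and Foxp3 cells. In the knockdown comparisons it leaves 1 library in a group, so numbers of called members are not summed up for it here. The calls that it removed are given above by member. A replicate block pairing same-numbered libraries left the number of called members unchanged in each of the 7 knockdown comparisons. The share of all genes called with that block is not given here, so this is not set against a background.

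Counts of all genes called fell with DESeq2 from 4917 to 2671 (whole Cd4), 4681 to 2657 (whole Cd8), 395 to 183 (Foxp3), 402 to 124 and 1107 to 427 (Cd4 classes), 1091 to 352 and 815 to 291 (Cd8 classes), 3606 to 2009 and 3704 to 2388 (gates) and 420 to 184 and 404 to 131 (interactions). The 395 of Foxp3 cells became 0 and 1 without either control library, 11 with no low-count filter, 115 with strict gates, 189 with marked cells left out, and 732 and 635 with other doublet settings. Strict gates gave 184 and 489 in the Cd4 classes, a limit of 40 gave 1814 under 20, a limit of 10 gave 262 in the Cd4 interaction, and leaving out marked cells gave 2061 for Foxp3 against Cd4 cells and 194 in the Cd8 interaction. The 136 and 137 control Cd4 cells with at least 20 Ccl5 UMIs limit the precision within that class.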
